A study of Mus musculus with 4 samples.

Results

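The subject is the potassium channel genes of insulin reporter-positive cells made from mouse gallbladder, leaving out the genes of the ATP-sensitive potassium (K-ATP) channel pore. Members were all rows of the deposited expression table whose gene symbol is Kcn followed by 1 or 2 letters and a number, without Kcnj8 and Kcnj11. This rule gave 90 of the 20377 genes in the table, in 20 subgroups named by the letters after Kcn, and it used no measured value.

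The cells were primary gallbladder cells of 8-week-old C57BL/6 mice of the strain B6.Cg-Tg(Ins1-EGFP)1Hara/J, whose MIP-GFP transgene has green fluorescent protein driven by an Ins1 promoter. They were expanded in culture, given the transcription factors Pdx1, Ngn3, Mafa and PAX6 plus compounds left unnamed in the labels, and kept in reprogramming for 10 days. GFP-positive cells were then sorted by flow cytometry for RNA sequencing. All samples belong to this 1 group, called rGBC2, with 4 libraries numbered 1 to 4, and all of them carry the transgene and received the factors. Since the sort took cells with an active Ins1 promoter, each value holds for reporter-positive cells only.

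Potassium channels let potassium leave the cell and so hold the membrane potential negative or return it there after an electrical spike. In pancreatic beta cells, closure of K-ATP channels by glucose metabolism depolarizes the membrane, calcium enters, and insulin granules are released. Other potassium channels act around this step: leak channels set the resting potential, voltage-gated and calcium-activated channels end each spike, and inward rectifiers coupled to G proteins let hormones quieten the cell. In gallbladder and bile duct epithelium, potassium channels instead supply the electrical drive for secretion of chloride and fluid.

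Expression was given as RPKM, reads per kilobase of transcript, divided by library depth, so genes can be compared with each other within a library. Depth, estimated from the smallest steps in the values, lay between 22.2 M and 32.9 M mapped reads (M, mega) per library. At that depth 3 reads on a transcript of 1 kilobase come to 0.0912 to 0.135 RPKM, and lower values rest on very few reads. Replicates 3 and 4 were much closer to each other than any other pair, although they differed by more than sampling noise. For genes with at least 20 reads in a pair, the median chi-square per gene was 2.45 for replicates 3 and 4 and 18.9 to 48.3 for the other pairs. Y-linked Ddx3y stood at 26.9 and 38.2 RPKM in replicates 1 and 2 and was listed at 0 in replicates 3 and 4. The labels do not say whether the libraries came from separate animals or cultures, so p-values measure only the spread between these 4 libraries. How much of that spread is technical was not tested. Gapdh, which every cell uses, was at most 0.2 RPKM in every library and listed at 0 in replicate 2, so a gene listed at 0 is not shown to be silent.

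Defining markers of the labelled cell type were present in part. Of 6 beta-cell markers, 5 lay above 1 RPKM, Ucn3 being the exception. The design bears on 2 of these, since the Ins1 promoter drove the sorted reporter and Mafa was among the factors given. Of 4 biliary markers, 3 lay above 1 RPKM. All 3 endothelial markers lay below 1 RPKM, and the leukocyte genes Ptprc and Cd3e were at most 0.01 RPKM, although Cd68, a lysosomal protein of macrophages, was at 126 to 167 RPKM. Of 6 neuronal markers measured, 3 lay above 1 RPKM, led by Tubb3 and Syp, and 3 passed in neither direction. The summed level of the 6 neuronal markers ranged from 105 to 310 RPKM over the libraries. The delta-cell gene Sst stood at 664, 460, 5573 and 6409 RPKM by replicate number and the alpha-cell gene Gcg at 95.7 to 942 RPKM. The other delta-cell marker, Hhex, was at 75.7 to 110 RPKM, whereas the other alpha-cell marker, Irx2, lay below 1 RPKM at 0.11 to 0.6 RPKM. Of 5 smooth muscle and pericyte markers, Myh11 lay above at 1.6 to 19.4 RPKM, while Acta2 was listed at 0 in 3 libraries and the 5 together came to 6.93 to 20.2 RPKM. The part of other cell types in the channel values was not tested. Each library pools many cells, so fewer cells with a transcript and less transcript per cell cannot be told apart.

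The promoters of 4 members are shown because the results turn on these genes: Kcnk16, which encodes the pancreatic leak channel TALK-1, and the 3 most abundant members, Kcnk1, Kcnc1 and Kcnj12. Each sequence is the 250 bases before the transcription start in RefSeq's annotation of GRCm38.p6, written 5′ to 3′ on the gene's strand. Capitals mark matches to the E-box CANNTG, which Ngn3 and other bHLH factors bind, and to TGCTGAC, the core bound by Maf factors, on either strand. The windows are chr14:20269270-20269519 on the minus strand for Kcnk16, chr8:125994852-125995101 on the plus strand for Kcnk1, chr7:46396218-46396467 on the plus strand for Kcnc1 and chr11:61065554-61065803 on the plus strand for Kcnj12.
Kcnk16: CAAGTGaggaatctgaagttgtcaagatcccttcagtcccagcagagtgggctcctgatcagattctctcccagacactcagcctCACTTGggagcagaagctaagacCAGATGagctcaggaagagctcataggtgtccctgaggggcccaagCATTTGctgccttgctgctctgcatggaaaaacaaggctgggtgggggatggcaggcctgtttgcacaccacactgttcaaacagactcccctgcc
Kcnk1: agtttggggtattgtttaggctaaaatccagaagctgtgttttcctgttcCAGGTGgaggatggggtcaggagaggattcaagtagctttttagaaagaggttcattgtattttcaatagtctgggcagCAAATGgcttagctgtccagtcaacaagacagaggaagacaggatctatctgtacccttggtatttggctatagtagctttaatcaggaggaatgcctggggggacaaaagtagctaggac
Kcnc1: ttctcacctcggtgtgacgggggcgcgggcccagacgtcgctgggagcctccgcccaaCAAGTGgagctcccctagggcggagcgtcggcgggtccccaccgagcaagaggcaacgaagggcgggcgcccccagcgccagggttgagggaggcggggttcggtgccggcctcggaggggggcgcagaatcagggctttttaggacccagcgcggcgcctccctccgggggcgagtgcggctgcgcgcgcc
Kcnj12: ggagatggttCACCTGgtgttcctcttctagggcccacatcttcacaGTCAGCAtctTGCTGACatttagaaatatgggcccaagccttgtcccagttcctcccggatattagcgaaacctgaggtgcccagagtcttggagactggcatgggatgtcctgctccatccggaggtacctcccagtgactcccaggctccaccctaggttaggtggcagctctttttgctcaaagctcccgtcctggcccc

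The Kcnk16 window held 4 E-boxes, 1 of them CAGATG, and no CpG dinucleotide. The Kcnk1 window, of the most abundant member, also held no CpG and had 2 E-boxes, whereas the Kcnc1 window held 30 CpG and 1 E-box. Only the Kcnj12 window of these 4 matched TGCTGAC, at 2 places. For 66 of the 90 members RefSeq's table gave 91 such windows, some genes having several starts. CANNTG occurred in 65.9% of these windows and in 66.2% of all 32851 promoter windows of the same length, and CAGATG, which is one form of CANNTG, in 14.3% against 14.4%. TGCTGAC occurred in 3.30% against 3.81%, and TAATTA, a core bound by homeodomain factors such as Pdx1, in 0 of the 91 windows against 4.84% of all. A match describes letters in the window and is not evidence of binding.

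Most potassium channel genes were low in these cells, and a few were abundant. In limma's moderated test against 1 RPKM, 23 of the 90 members lay above it and 45 below, 16 passed in neither direction, and 6 were listed at 0 in every library and not tested. Of the 84 members tested, 27.4% lay above 1 RPKM. Of all 16919 genes tested, 65.0% lay above 1 RPKM and 26.1% below. The median of the member means was 0.438 RPKM over all 90, beside 3.53 RPKM over all genes in the table. The summed RPKM of the 90 genes was 394, 306, 516 and 507 in replicates 1 to 4, which is 0.0583% to 0.0923% of all RPKM in a library. Replicate 2 had the lowest sum, and the Kcnk1, Kcnc1, Kcnj12 and Kcnq1 genes together made up 57.8% to 63.3% of each sum.

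**Figure D1:**
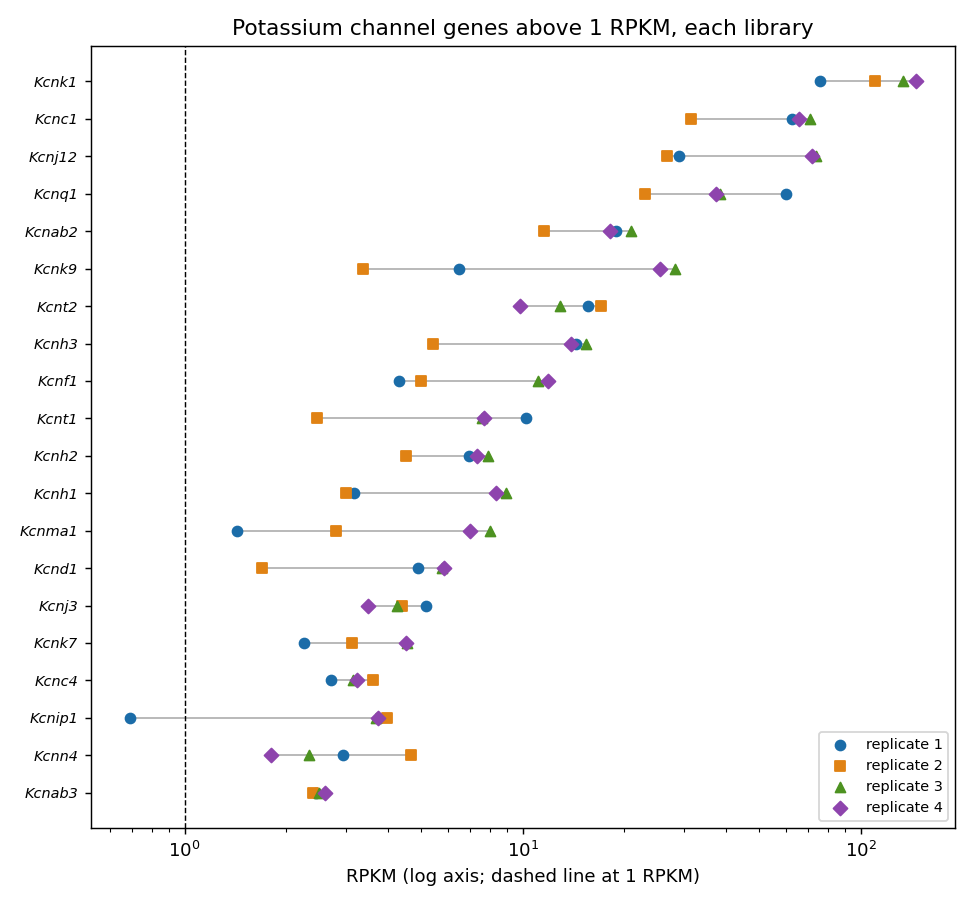
RPKM on a log axis in each of the 4 libraries (coloured symbols) for 20 of the 23 potassium channel genes above 1 RPKM in limma's test, ordered by mean, with a grey line from the lowest to the highest library. Kcnk1 was highest, from 75.9 to 146 RPKM, and for Kcnip1 alone replicate 1 fell under the dashed line at 1 RPKM.

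**Figure D2:**
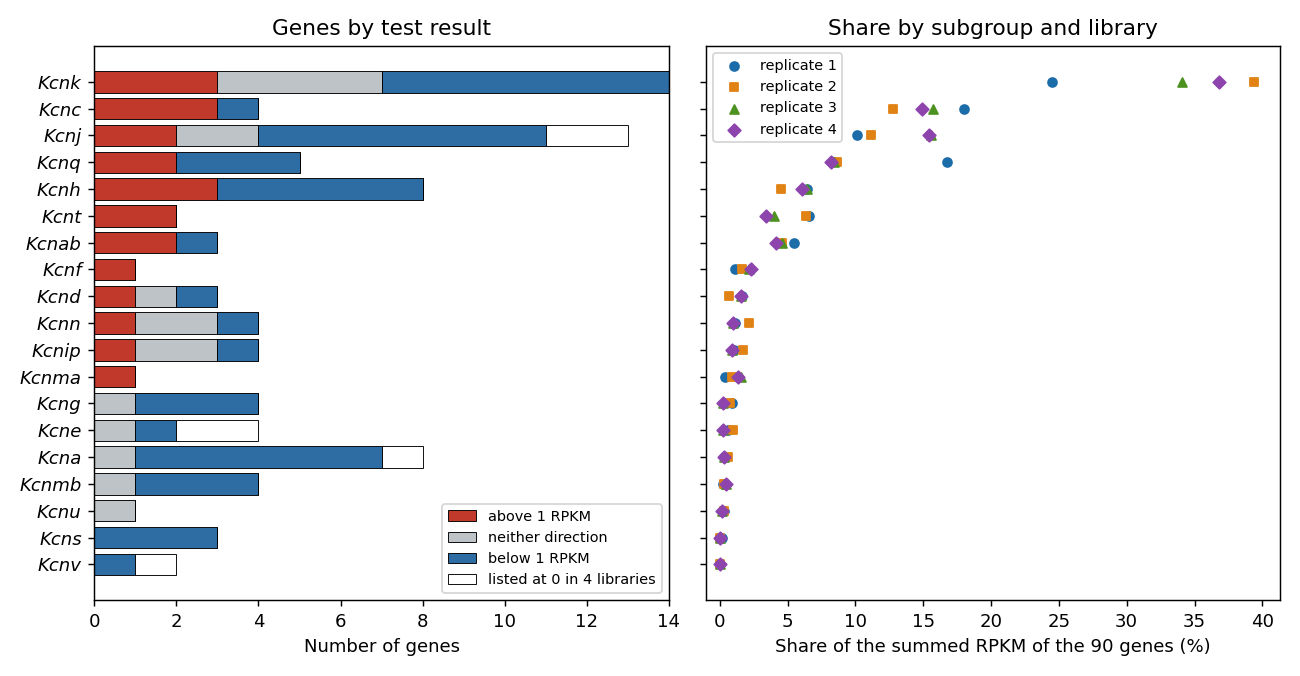
Left, number of genes in 19 of the 20 Kcn subgroups by result of the test against 1 RPKM. Right, share of the summed RPKM of the 90 genes taken by each of these subgroups in each library (symbols). The Kcnk subgroup took 24.5% to 39.4%, and no gene of the Kcna, Kcne, Kcng, Kcnmb, Kcns, Kcnu or Kcnv subgroups lay above 1 RPKM.

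The tandem-pore-domain channels of the Kcnk subgroup carry leak currents that set the resting potential. They took the largest share of the summed RPKM, 33.7% ± 6.49 (SD, n = 4), although only 3 of 14 genes lay above 1 RPKM and 7 lay below. Kcnk1, a weakly conducting leak channel of epithelia and brain, stood at 75.9, 111, 133 and 146 RPKM in replicates 1 to 4. It was the most abundant member in all 4 libraries, with a mean of 116 ± 30.7 RPKM (SD, n = 4; limma, adjusted p = 6.91e-07 against 1 RPKM), and replicate 1 was lowest. Its transcript maps in mm9 to chromosome 8 from 128519002 to 128554585. Without Kcnk1, the other Kcnk genes took 8.50% of what remained.

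Kcnk9, an acid-sensitive leak channel best known from neurons and the adrenal gland, was at 6.47, 3.38, 28.3 and 25.5 RPKM in replicates 1 to 4. Replicates 3 and 4 lay several-fold above replicates 1 and 2, and the SD of 12.8 RPKM approached the mean of 15.9 RPKM (limma, adjusted p = 0.0036). Kcnk7, a family member for which no current of its own is established, was more even at 2.26, 3.13, 4.54 and 4.51 RPKM (adjusted p = 0.002 by limma).

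Kcnk16 encodes TALK-1, a leak channel largely restricted to the pancreas that limits calcium entry in beta cells. It was at 4.58, 0.25, 5.23 and 5.94 RPKM in replicates 1 to 4. Replicate 2 stood far below the other 3 libraries, which lay close together. Over all 4 libraries Kcnk16 passed in neither direction, at 4.0 ± 2.56 RPKM (SD, n = 4; limma, adjusted p = 0.0702), and without replicate 2 it lay above 1 RPKM (limma, adjusted p = 0.000827, and 0.0235 to 0.358 under its other alternatives).

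In mm9 Kcnk16 lies on chromosome 14 from 21081978 to 21088384, and the nearest member, Kcnk5, lies 81.0 kilobases away from 20959280 to 21001004 with no other gene of the table between them. Kcnk5, an alkali-activated leak channel of kidney and other epithelia, was at 1.85, 1.18, 0.61 and 0.67 RPKM without passing either way (limma, adjusted p = 0.929). Kcnk16 exceeded Kcnk5 in 3 of 4 libraries and was lower in replicate 2, so the mean log2(RPKM + 1) difference of 1.04 ± 1.32 was smaller than its SD (exact two-sided sign-flip permutation p = 0.25, n = 4, and 0.333 after adjustment over 4 such differences, of which 3 are given). The neighbours thus differed in which library was lowest.

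Kcnk3 and Kcnk2, the leak channel genes that were listed with Kcnk16 as islet channels, were low. Kcnk3, another acid-sensitive leak channel, was at 0.2, 0.01, 0.55 and 0.76 RPKM and lay below 1 RPKM (limma, adjusted p = 0.00917). Kcnk2, which opens on membrane stretch, was at 0.46, 0.04, 1.42 and 1.15 RPKM without passing either way (limma, adjusted p = 0.294). As for Kcnk16, replicate 2 was lowest for both, and replicates 3 and 4 were highest. Kcnk6, a relative of Kcnk1, was at 3.53 RPKM in replicate 1 and at 0.81 to 1.12 RPKM in the others and also passed in neither direction (limma, adjusted p = 0.278). Kcnk4, Kcnk10, Kcnk12, Kcnk13, Kcnk15 and Kcnk18 made up the rest, all below 1 RPKM with no library over 0.79 RPKM.

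Voltage-gated channels open on depolarization and return the membrane to rest. Among 30 genes that can form such pores by themselves (the Kcna, Kcnb, Kcnc, Kcnd, Kcnh and Kcnq subgroups), 10 lay above 1 RPKM, 17 below, 2 passed neither way and 1, Kcna10, had 0 in every library. Their share of the summed RPKM came to 47.4% in replicate 1 and to between 29.7% and 35.0% in the others.

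Kcnc genes encode fast voltage-gated channels best known from neurons, and Kcnc1 and Kcnc4 lay above 1 RPKM. Kcnc1 was at 62.7, 31.5, 70.7 and 65.8 RPKM by replicate number, close together in all but replicate 2. With 57.7 ± 17.8 RPKM (SD, n = 4; limma, adjusted p = 3.45e-06) it came next after Kcnk1 among the members. Its mm9 position is chromosome 7 from 53651838 to 53688723. Kcnc4 stood at 3.18 ± 0.362 RPKM, while Kcnc2 lay below 1 RPKM at 0.04 to 0.12 RPKM.

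Kcnq1 encodes a slow delayed rectifier that in epithelia supports fluid secretion. It was at 60.1, 23.0, 38.4 and 37.3 RPKM in replicates 1 to 4, highest in replicate 1 and lowest in replicate 2, with a mean of 39.7 ± 15.3 RPKM (SD, n = 4; limma, adjusted p = 7.06e-06). Its mm9 position is chromosome 7 from 150293159 to 150612947. An antisense RNA, Kcnq1ot1, is transcribed from within this locus, and whether its reads add to the Kcnq1 value was not tested. Kcnq3 and Kcnq5, subunits of the neuronal M-current, lay below 1 RPKM. Of these, Kcnq5 reached at most 0.2 RPKM, and Kcnq3 was listed at 0 in 3 libraries.

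Kcnb2, which also encodes a delayed rectifier, was at 0.37, 1.09, 0.11 and 0.23 RPKM in replicates 1 to 4, so replicate 2 stood above the other libraries. It lay below 1 RPKM (limma, adjusted p = 0.0214), but not after leaving out replicate 1, 3 or 4 (adjusted p = 0.0554 to 0.0739 by limma, and 0.000774 to 0.58 over all its alternatives).

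Silent subunits form no channel alone and modify the delayed rectifiers that they join. Kcnf1, the one silent subunit gene above 1 RPKM, was at 4.31, 4.99, 11.1 and 11.9 RPKM in replicates 1 to 4 (limma, adjusted p = 0.000719). It was highest in replicates 3 and 4. Amigo1, an adhesion protein that accompanies delayed rectifiers in neurons, was at 26.2, 25.6, 45.5 and 45.4 RPKM and likewise higher in replicates 3 and 4. The other 9 silent subunits, in the Kcng, Kcns and Kcnv subgroups, did not reach this level. Of these, 7 lay below 1 RPKM with no library over 0.68 RPKM, Kcnv1 was listed at 0, and Kcng3 was at 2.9, 1.96, 0.9 and 0.73 RPKM without passing either way (limma, adjusted p = 0.234).

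Kcnh genes encode channels of the ether-a-go-go family, and 3 of 8 lay above 1 RPKM. Kcnh3, a member best known from forebrain, was at 14.4, 5.44, 15.4 and 13.9 RPKM in replicates 1 to 4, with replicate 2 standing apart. The gene overlaps Mcrs1 on the opposite strand (8.59 RPKM on average), and reads of the overlap cannot be assigned without strand. Kcnh2, the hERG channel, was at 6.92, 4.51, 7.91 and 7.32 RPKM (limma, adjusted p = 0.000129). Kcnh1, the founding member of the family, was at 3.17, 3.01, 8.9 and 8.35 RPKM, so replicates 3 and 4 were higher. By contrast Kcnh6, a close relative of Kcnh2 reported in human islets, lay below 1 RPKM at 0.48 ± 0.239 RPKM (limma, adjusted p = 0.0068). Kcnh4, Kcnh5, Kcnh7 and Kcnh8 also lay below, with no library over 0.61 RPKM.

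A-type channels of the Kcnd subgroup open and close rapidly. Kcnd1 was at 4.92, 1.69, 5.76 and 5.84 RPKM in replicates 1 to 4 (limma, adjusted p = 0.00439), so replicate 2 was lowest here too. Kcnd2 was at 1.45, 0.27, 2.18 and 2.07 RPKM without passing either way (limma, adjusted p = 0.398), but lay above 1 RPKM without replicate 2 (adjusted p = 0.0255 by limma, and up to 0.768 under other alternatives). Kcnd3 lay below, at 0.01 to 0.09 RPKM. Kcnip1, a calcium-binding subunit that brings Kcnd channels to the membrane, was at 0.69, 3.97, 3.69 and 3.74 RPKM. It lay above 1 RPKM (limma, adjusted p = 0.0368), but not without replicate 2, 3 or 4 (limma, adjusted p = 0.0981 to 0.126, and 0.00143 to 0.39 over all its alternatives). Kcnmb1 overlaps Kcnip1 on the other strand, so reads of the shared span cannot be assigned without strand. Kcnip3, which also represses transcription, passed in neither direction with Kcnip4, and Kcnip2 lay below, reaching 0.64 RPKM in replicate 1 and listed at 0 in replicate 4. Kcnip4 was at 1.58, 0.79, 0.33 and 0.27 RPKM and Kcnip3 at 1.21, 0.34, 0.5 and 0.57 RPKM.

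No gene of the Kcna subgroup, the Shaker-type channels of axons and lymphocytes, lay above 1 RPKM. Of 8 genes, 6 lay below, Kcna10 was listed at 0, and Kcna7 was at 1.03 to 1.14 RPKM without passing either way (limma, adjusted p = 0.384). Even so, 2 of the 3 Kcnab genes, whose products are cytoplasmic beta subunits of Kcna channels, lay above. Kcnab2 was at 18.9, 11.5, 20.9 and 18.2 RPKM in replicates 1 to 4 (limma, adjusted p = 7.25e-06). Kcnab3 differed least between libraries among the members above 1 RPKM, at 2.49 ± 0.087 RPKM (SD, n = 4). Kcnab1 lay below, at 0.31 ± 0.105 RPKM.

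Inward rectifiers of the Kcnj subgroup pass potassium mainly near the resting potential. Leaving out the K-ATP pore genes, 2 of 13 lay above 1 RPKM, 7 below, 2 in neither direction, and Kcnj15 and Kcnj16 were listed at 0. Kcnj12, a strong inward rectifier of heart and muscle, was at 29.0, 26.7, 73.6 and 72.0 RPKM in replicates 1 to 4. Replicates 3 and 4 did not overlap with replicates 1 and 2, and the mean was 50.4 ± 26 RPKM (SD, n = 4; limma, adjusted p = 2.38e-05). Its mm9 position is chromosome 11 from 60879306 to 60884633. Its relatives Kcnj2 and Kcnj4 were near 1 RPKM. Kcnj2 lay just below it at 0.735 ± 0.19 RPKM (limma, adjusted p = 0.0468), and Kcnj4 was at 1.69 RPKM in replicate 1 and at 0.75 to 0.83 RPKM in the others (limma, adjusted p = 0.958).

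Kcnj3 encodes a subunit of the G protein-gated rectifier through which somatostatin and other hormones quieten endocrine cells. It was at 5.17, 4.4, 4.25 and 3.49 RPKM in replicates 1 to 4, with a mean of 4.33 ± 0.689 RPKM (limma, adjusted p = 0.000345), and all libraries were close. This subunit needs a partner to reach the membrane, and the genes of its partners were lower. Kcnj5 was at 1.46, 0.29, 0.54 and 0.61 RPKM without passing either way (limma, adjusted p = 0.165), and without replicate 1 it lay below 1 RPKM (limma, adjusted p = 0.00621, and 0.00288 to 0.487 over all its alternatives). Kcnj6 and Kcnj9 lay below, with at most 0.04 and 0.06 RPKM. Kcnj13 and Kcnj14 also lay below, and Kcnj13, with at most 0.32 RPKM, overlaps the more abundant Gigyf2 on the other strand, so its reads are uncertain. Kcnj10, a rectifier of glia and of epithelia, lay below 1 RPKM at 0.683 ± 0.0386 RPKM (limma, adjusted p = 0.00461), but not with a pseudocount of 0.1 (limma, adjusted p = 0.0759, and 1.69e-05 to 0.0759 over all its alternatives).

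The K-ATP pore gene Kcnj11 gives a reference for these levels, at 13.4, 8.09, 16.1 and 16.3 RPKM in replicates 1 to 4. Kcnk16 was below Kcnj11 in all 4 libraries, with a mean log2(RPKM + 1) difference of -1.75 ± 0.74, 3.37-fold in RPKM + 1 (p = 0.12 in the exact sign-flip permutation test, the smallest that 4 libraries allow, and 0.25 after adjustment). The difference was -2.86 in replicate 2 and between -1.46 and -1.32 in the others. By mean RPKM, Kcnk1, Kcnc1, Kcnj12, Kcnq1, Kcnab2, Kcnk9 and Kcnt2 stood higher than Kcnj11. For Kcnk9 this held only in replicates 3 and 4, and for Kcnt2 only in replicates 1 and 2.

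Channels opened by calcium or sodium link ion entry to repolarization. Of 8 genes in the Kcnma, Kcnn, Kcnt and Kcnu subgroups, 4 lay above 1 RPKM, 1 below and 3 in neither direction. Kcnt2, a sodium-activated channel, was at 15.6, 17.1, 12.9 and 9.81 RPKM in replicates 1 to 4 (limma, adjusted p = 1.07e-05). Its relative Kcnt1 was at 10.2, 2.46, 7.58 and 7.68 RPKM (limma, adjusted p = 0.00177), so replicate 2 was the highest library for Kcnt2 and the lowest for Kcnt1. Kcnu1, a channel known from sperm, was at 0.88 to 1.34 RPKM and passed in neither direction.

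Kcnma1 encodes the BK channel, which opens on calcium and voltage together. It was at 1.43, 2.8, 8.02 and 6.97 RPKM in replicates 1 to 4 (limma, adjusted p = 0.0144), again higher in replicates 3 and 4. Kcnmb4, a BK beta subunit of neurons, had the same order of these library pairs, at 0.4, 0.72, 1.78 and 1.71 RPKM, without passing either way (limma, adjusted p = 0.832). Kcnmb1, Kcnmb2 and Kcnmb3 lay below 1 RPKM, with no library over 0.57 RPKM. Lrrc26, a gamma subunit that lets BK channels of secretory epithelium open at rest, went the other way, at 15.5, 13.7, 1.2 and 1.18 RPKM in replicates 1 to 4 (limma, adjusted p = 0.0584).

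Kcnn4, the intermediate-conductance channel of secretory epithelia and blood cells, had 2.95, 4.67, 2.34 and 1.8 RPKM (limma, adjusted p = 0.00712). It exceeded Kcnma1 in replicates 1 and 2 and lay under it in replicates 3 and 4, so the mean log2(RPKM + 1) difference of -0.42 ± 1.22 did not exceed the SD (p = 0.5 in the exact sign-flip permutation test, n = 4). The small-conductance channels that slow firing after a spike were at lower levels. Kcnn2 was at 0.14, 1.11, 1.68 and 1.78 RPKM and Kcnn1 at 0.72 to 1.33 RPKM, and both passed in neither direction (limma, adjusted p = 0.872 and 0.814). Kcnn3 lay below 1 RPKM at 0.05 to 0.14 RPKM. Calmodulin, the calcium sensor fixed to all Kcnn channels, was abundant, with Calm2 at 122 to 184 RPKM and Calm3 at 137 to 207 RPKM.

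Kcne genes encode small single-pass subunits that reset the gating of Kcnq1 and other channels. None of the 4 lay above 1 RPKM. Kcne3, which holds Kcnq1 open in secretory epithelium, was at 2.1, 2.85, 1.04 and 1.21 RPKM without passing either way (limma, adjusted p = 0.0724). Kcne2 lay below 1 RPKM at 0.39, 0.21, 0.07 and 0.04 RPKM, with replicates 1 and 2 the higher libraries for both genes. Kcne1, the cardiac partner, and Kcne4 were listed at 0 in every library. Kcnq1 itself did not share this order of libraries.

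**Figure D3:**
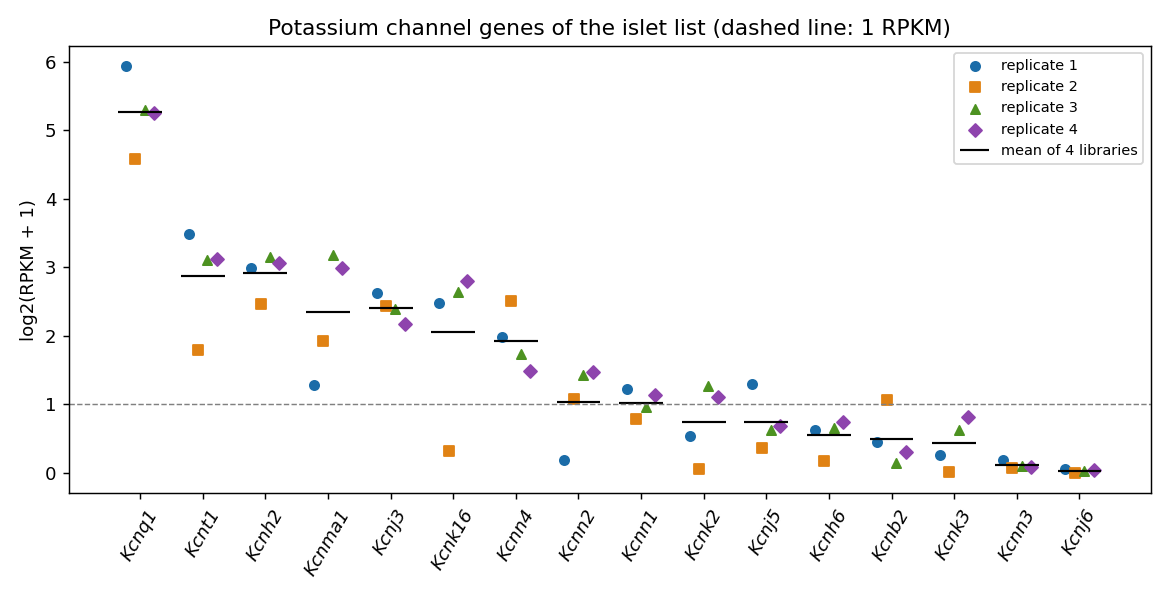
log2(RPKM + 1) in each library (symbols) and its mean (black bar) for 16 of the 17 potassium channel genes of the islet list, ordered by mean RPKM, with a dashed line at 1 RPKM. Of those drawn, 6 lay above 1 RPKM, and Kcnk16 in replicate 2 stood at 0.25 RPKM.

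Grouped by where they are best known, 7 of 17 islet channel genes lay above 1 RPKM (among them Kcnq1, Kcnt1, Kcnh2, Kcnma1, Kcnj3 and Kcnn4), 5 below and 5 in neither direction, with a median of the means of 1.18 RPKM. Of 12 epithelial and biliary channel genes, 4 lay above (Kcnk1, Kcnq1, Kcnma1 and Kcnn4), 2 below, 4 in neither direction, and 2 were listed at 0, with a median of 1.41 RPKM. Of 12 neuronal channel genes, 4 lay above (among them Kcnc1, Kcnab2 and Kcnt1), 5 below and 3 in neither direction, with a median of 0.882 RPKM. The lists share members, and 65.0% of all genes tested lay above 1 RPKM. In the neuronal list the abundant genes stood beside others at or near 0, such as Kcna2 with at most 0.04 RPKM and Kcna1 with 0.14 to 0.42 RPKM.

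Among genes that work with these channels but carry other names, 24 of 40 lay above 1 RPKM, 10 below and 5 passed neither way. Lrrc52, a testis BK subunit, had 0 in every library. The share above was 60%, near the 54.0% of all genes in the table. The sodium-potassium pump builds the potassium gradient. Of 14 pump genes 8 lay above 1 RPKM and 5 below, and its beta subunit Atp1b1 was at 437 to 544 RPKM. In the K-ATP channel, the regulatory subunit Abcc8 was at 319 to 560 RPKM, whereas Kcnj8 and Abcc9, the subunits of the vascular form, lay below with at most 0.02 RPKM. Of the cation-chloride cotransporters, which move potassium with chloride, 5 of 6 lay above, led by Slc12a7 with 18.4 to 27.3 RPKM. The hyperpolarization-activated channels, which pass sodium and potassium, had 3 of 4 above, and Hcn2 was at 5.7, 4.88, 7.55 and 7.14 RPKM. Dpp6, an accessory subunit of Kcnd channels, was at 0.31 to 1.29 RPKM and passed in neither direction, and Dpp10 lay below.

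**Figure D4:**
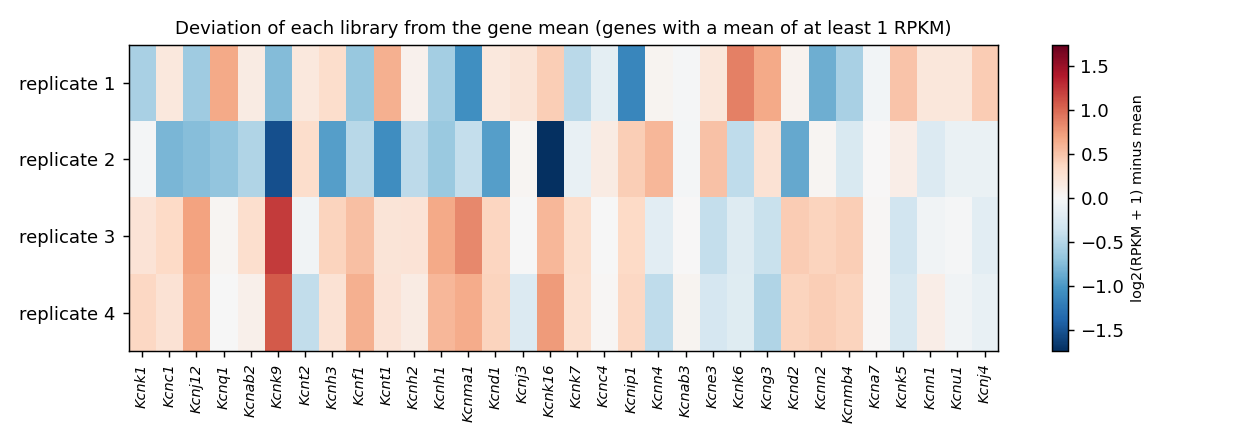
Deviation of each library from the gene's mean of log2(RPKM + 1) for 32 of the 35 members with a mean of at least 1 RPKM, ordered by mean, red above and blue below it. Replicates 3 and 4 have like colours across the genes, and the darkest blue cell is Kcnk16 in replicate 2.

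The libraries differed in ways that many members shared. Among the 35 members with a mean of at least 1 RPKM, replicate 2 was lowest for 19, replicate 1 for 9, replicate 4 for 4 and replicate 3 for 3. Among all 11967 genes at that level, 30.9% were lowest in replicate 2, 21.6% in replicate 1, 28.9% in replicate 4 and 18.6% in replicate 3. The mean absolute difference of these 35 genes on the log2(RPKM + 1) scale was 0.10 between replicates 3 and 4 and 0.62 to 0.76 between the other pairs, beside 0.12 and 0.40 to 0.60 over all genes at that level. Members far higher in replicates 3 and 4 than in the others were Kcnk9, Kcnj12, Kcnma1, Kcnh1 and Kcnf1, while Kcng3, Kcnip4 and Kcne2 were higher in replicates 1 and 2. These genes were singled out after their values were seen, and the share of all genes that split the libraries in this way was not counted. Kcne2, at 0.07 and 0.04 RPKM in replicates 3 and 4, rests there on very few reads. The libraries with reads of Ddx3y were replicates 1 and 2. Sst, Tubb3 and Syp were highest in replicates 3 and 4, Syp at 33.9, 24.4, 105 and 109 RPKM. The neuronal markers Elavl4 and Rbfox3 were also highest there, whereas Elavl3 and Snap25 were highest in replicate 1. The delta-cell marker Hhex was highest in replicate 2, at 110 RPKM. Myh11, like Kcnk16 and Kcnq1, was lowest in replicate 2, at 1.6 RPKM. The other smooth muscle and pericyte markers were highest in that library, Rgs5 at 4.59 RPKM and Acta2, Des and Cnn1 at 0.09 to 0.5 RPKM. The part of these cell type and library differences in the channel values was not tested.

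Neighbouring members did not share a level in every case. Kcnj9 and Kcnj10 lie 11.9 kilobases apart on chromosome 1, the first at most 0.06 RPKM and the other at 0.64 to 0.72 RPKM. On chromosome 9, 28.2 kilobases separate Kcnj5, at 0.29 to 1.46 RPKM, from Kcnj1, a kidney rectifier at 0.47, 0.07, 0.01 and 0 RPKM in replicates 1 to 4. In both pairs the genes stood at unlike levels in most libraries. The Kcna genes form clusters, and those with members under 100 kilobases apart were low throughout. On chromosome 3, Kcna3 and Kcna2 reached at most 0.02 and 0.04 RPKM and Kcna10 was listed at 0, and on chromosome 6, Kcna1 and Kcna6 were at 0.14 to 0.42 and 0.17 to 0.29 RPKM.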

How the data were processed

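RNA from sorted reporter-positive cells was sequenced in 4 libraries of 1 group. The deposited values are RPKM per gene, made by the authors with CASAVA 1.8.2 and Bowtie on mm9, per the submitters' processing notes. The library kit does not mark strand, per the labels' protocols. The table holds 6 further columns of per-sample values that match no sample used here, and these were not used. Members were picked by gene symbol alone, but the gene lists and the rule for naming genes were chosen with earlier results of these data known.

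Levels were tested on log2(RPKM + 1) against 1 RPKM with limma 3.58.1 in R 4.3.3 (mean-variance trend, two-sided, p-values adjusted by Benjamini-Hochberg across 16919 genes, leaving out those with 0 in all libraries, threshold 0.05). The test was checked on simulated data in which the 4 libraries were independent and the spread per gene was capped. Replicates 3 and 4 were too alike for that setting, so the check does not cover p-values under such likeness. Named genes were members above 1 RPKM with a mean of at least 2 RPKM, members passing in neither direction, and every gene of the islet, epithelial and neuronal lists. Some of these genes are not reported here or drawn in the plots, although counts include them. The 4 differences between genes within a library used exact two-sided sign-flip permutation tests, which with 4 libraries cannot go below 0.12 (rounded). Depth was estimated from the RPKM steps of 993 olfactory receptor genes. Floors cover counting error only. Start positions in the table count from 0 and are given here from 1. RefSeq promoters are of GRCm38.p6, a later build than mm9, so no position was carried between them. Alternatives were the pseudocount (0.1 or 0.5), the filter on low values, the trend, scaling, the level tested (0.5 or 2 RPKM) and leaving out each replicate. Averaging replicates 3 and 4 was added after the data were seen.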

Additional observations from a re-analysis of the deposited data

Results flagged for a closer look

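In 6 of the 48 groups of 4 libraries examined, 1 library stood apart from the other 3, with a gap to the nearest library that, as a share of the whole range, passed Dixon's critical value. For 4 independent values with a normal spread, chance gives such a gap in about 1 of 20 groups. Replicates 3 and 4 were much alike and all groups share the same libraries, so 6 of 48 cannot be judged against that rate. In replicate 1, Kcnip1, the calcium-binding subunit of A-type channels, was low at 0.69 RPKM. In the same library the leak channel gene Kcnk6 was high at 3.53 RPKM and the inward rectifier gene Kcnj4 at 1.69 RPKM. The Kcnq subgroup took 16.8% of the summed RPKM of the 90 members there and 8.23% to 8.67% in the others. In replicate 2, Kcnh3 was low at 5.44 RPKM, and the difference of Kcnk16 from Kcnj11 on the log2(RPKM + 1) scale was largest in size, at -2.86.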

How the results depend on the processing

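The counts of members above and below 1 RPKM were 22 to 24 and 42 to 44 when each replicate was left out in turn, 22 and 43 with replicates 3 and 4 averaged (chosen after seeing the data), 34 and 34 against 0.5 RPKM, and 19 and 55 against 2 RPKM. With only genes of mean at least 0.1 RPKM tested, which removes low genes, 21 members and 5 genes of the pathway list lay below. Without Kcnk1, the Kcnk, Kcnc and Kcnj shares were 8.50%, 21.1% and 18.2%. Against 0.5 RPKM, 2 named genes changed sign and passed the test on the new side, with log2 differences of 0.17 for Kcnj10 and 0.41 for Kcnj4. Against 2 RPKM, 5 named genes that had passed in neither direction did so, at -0.51 for Kcna7, -0.57 for Kcnk5, -0.54 for Kcnmb4 and -0.56 for both Kcnn1 and Kcnu1, as the level itself moved. Kcnj10 no longer lay below 1 RPKM with a pseudocount of 0.1 (limma, adjusted p = 0.0759). Without replicate 1, Kcnip3 and Kcnip4 lay below it (limma, adjusted p = 0.00262 and 0.0172). Other named genes near 1 RPKM changed sign without passing. Of the 51 named genes tested, 26 kept their sign and call in every alternative run, 5 of the 51 lacking at least 1 alternative because a filter removed them. The scalings moved the median of all genes by at most 0.0039 (log2). No paired analysis was possible because there is only 1 group. Near 0.1 RPKM about 3 reads on a kilobase lie behind a value, so no order was read among the lowest members.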
